A study of Mus musculus with 2 samples.

Results

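The genes described here are the 4 members of the mouse Id family, Id1, Id2, Id3 and Id4, taken by symbol from the 32285 genes in the deposited tables. They were followed in somitic gastruloids, aggregates of embryonic stem cells that form somite-like and neural tissue in culture, by single-cell RNA sequencing. Both libraries came from the E14_triple reporter line with an endogenous Zeb2-HA-FKBP12F36V degron tag, so the untreated control carries the tagged Zeb2 too. One library was untreated and the other had received dTAG-13, which directs the tagged protein to degradation, at 100 nM at 72 h and again at 96 h. The sample labels call the control untreated, whereas the series text names DMSO. Each culture was seeded with 300 sorted cells, received 3 µM CHIR99021 after 48 h and was placed in 10% Matrigel at 96 h. About 32 gastruloids were pooled per library, and 10000 cells entered the 10x Genomics 3′ v3.1 workflow. No source used here gives the harvest time. There was 1 library per group, so no test between groups was possible, and every interval below is a 95% interval that covers counting error only.

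Id proteins are helix-loop-helix proteins without the basic region that contacts DNA. They bind the E proteins Tcf3, Tcf4 and Tcf12 and so keep these from pairing with tissue-specific basic helix-loop-helix (bHLH) factors, which drive differentiation in mesoderm and neural tissue. Id1, Id2 and Id3 are standard readouts of BMP signalling, because receptor-activated SMAD proteins bind their regulatory regions directly. Zeb2 is a zinc-finger repressor that binds receptor-activated SMADs and recognises paired E2-box sequences. The comparison asks how each Id transcript differs after Zeb2 degradation, lineage by lineage.

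On GRCm38, Id1 lies on the plus strand of chromosome 2 from 152736251 to 152737410, and Id2 on the minus strand of chromosome 12 from 25093799 to 25097140. Id3 lies on the plus strand of chromosome 4 from 136143497 to 136145755, and Id4 on the plus strand of chromosome 13 from 48261228 to 48266026. These spans cover each whole gene, exons and introns together, in the annotation supplied with that build. Within Id4, A330033J07Rik and Gm49291 overlap on the opposite strand and are also counted in the files. Strand handling during counting is not stated in the labels or notes, so the Id4 values are uncertain. The RefSeq promoter table for GRCm38.p6 held 3 of the 4 members, and the windows of Id2 and Id3, members that differed in several lineages, are shown. Each window runs from 250 bases before to 50 bases after the RefSeq start site, which for both genes lies inside the gene span above, and is written 5′ to 3′ on the gene's own strand. Capitals mark the letters GGCGCC, bound by SMAD1 and SMAD5 in BMP-responsive regions, and the SMAD-box letters CAGAC or, on the other strand, GTCTG.
Id2 chr12:25096043-25096342, minus strand: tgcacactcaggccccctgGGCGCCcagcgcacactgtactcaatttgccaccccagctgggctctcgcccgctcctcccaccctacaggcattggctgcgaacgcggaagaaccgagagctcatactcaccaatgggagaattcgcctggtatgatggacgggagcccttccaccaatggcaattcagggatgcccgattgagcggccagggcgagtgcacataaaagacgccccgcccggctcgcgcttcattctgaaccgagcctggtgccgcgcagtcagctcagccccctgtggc
Id3 chr4:136143572-136143871, plus strand: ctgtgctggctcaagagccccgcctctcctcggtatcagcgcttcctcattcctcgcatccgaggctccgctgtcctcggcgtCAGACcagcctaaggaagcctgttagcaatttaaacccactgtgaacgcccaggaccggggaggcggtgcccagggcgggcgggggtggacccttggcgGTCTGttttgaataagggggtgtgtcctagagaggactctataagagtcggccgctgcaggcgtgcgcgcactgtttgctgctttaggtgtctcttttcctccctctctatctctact
The Id2 window held GGCGCC once, starting at position -231 from the start site, and the Id4 window held it once, at position -148. In the Id3 window CAGAC began at -167 and GTCTG at -68. Of 32851 mouse promoter windows of the same length, 11.9% held GGCGCC and 49.6% held CAGAC or GTCTG. The E2-box letters CACCTG or CAGGTG, present in 20.2% of windows, and CAGGTA or TACCTG, present in 12.0%, were not among the letters of the 3 windows. A match here is a run of letters and not a measured binding site. The guanine and cytosine content of the Id2, Id3 and Id4 windows was 63.3%, 60.0% and 73.3%, beside a median of 52.7% over all windows.

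After filtering, 6231 untreated and 6688 dTAG-13 cells remained, with a median of 20073 and 20207 UMIs (unique molecular identifiers, each standing for 1 captured transcript). Of the barcodes, 10 occurred in the kept cells of both libraries. Cells were sorted into 8 overlapping gates, each defined by at least 2 UMIs of 1 marker, and Id UMIs were summed over the gate and divided by the gate's total, as CPM (UMIs in every 1000000 of the gate). The Meox1-positive gate held 913 untreated and 626 dTAG-13 cells, the Tbx6-positive gate 507 and 179, the T-positive gate 1387 and 959, and the Sox2-positive gate 2989 and 3047. There were 319 and 1338 Sfn-positive cells, 258 and 895 Pim2-positive cells, 110 and 164 Sox17-positive cells, and 524 and 765 Zfp42-positive cells. Other markers of the named lineage, 6 per list with the gate marker left out, were checked in each gate. Summed somite markers stood at 767 and 676 CPM in Meox1-positive cells against 177 and 121 CPM in the libraries, and summed endoderm markers at 4044 and 3012 CPM in Sox17-positive cells. Other lists were also high in Sox17-positive cells. Extraembryonic markers (Afp at 0) summed to 363 and 372 CPM, against 64.8 and 80.4 CPM in the libraries. Notochord and node markers, which share Foxa2 with the endoderm list, summed to 156 and 133 CPM, against 16.4 and 28.7 CPM. The Sox2-positive gate was mixed, since its neural markers summed to 145 and 65.8 CPM against 113 and 59.8 CPM in the libraries, and 15.2% and 21.6% of its cells were also Zfp42-positive. The Zeb2 transcript had 67.9 and 94.6 CPM in the untreated and dTAG-13 libraries. Since dTAG-13 acts on the protein, this level does not check the treatment label.

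Over the whole libraries, transcripts of all 4 members were higher with dTAG-13, and those of Id1, Id2 and Id3 by less than 1.5-fold. Id1 was at 92.3 CPM (90.7 to 93.9) untreated and 125 CPM (123.5 to 127.1) with dTAG-13, a log2 ratio of 0.44 (0.41 to 0.47). Id2, which marks differentiating mesoderm and neural tissue as well as responding to BMP, was at 76.2 and 87.1 CPM, a log2 ratio of 0.19 (0.16 to 0.23). Id3 was at 146 and 203 CPM, a log2 ratio of 0.47 (0.45 to 0.50). Id4, a member best known from later neural tissue, was at 1.58 and 2.55 CPM from 221 and 387 UMIs, a log2 ratio of 0.46 with a prior of 1 CPM and an interval of 0.45 to 0.94 without it. None of the 4 passed the threshold used here for a call, a ratio of at least 1.5-fold for genes with a mean of at least 10 CPM, which 2.03% of 7734 genes passed upward and 0.983% downward. Cell makeup differed between the libraries, with Sfn-positive cells at 5.12% and 20.01% and Tbx6-positive cells at 8.14% and 2.68% of kept cells. With 21 patterns of marker positivity weighted as in the untreated library, the log2 ratios were 0.70 for Id1, 0.41 for Id2, 0.53 for Id3 and 0.59 for Id4.

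**Figure D1:**
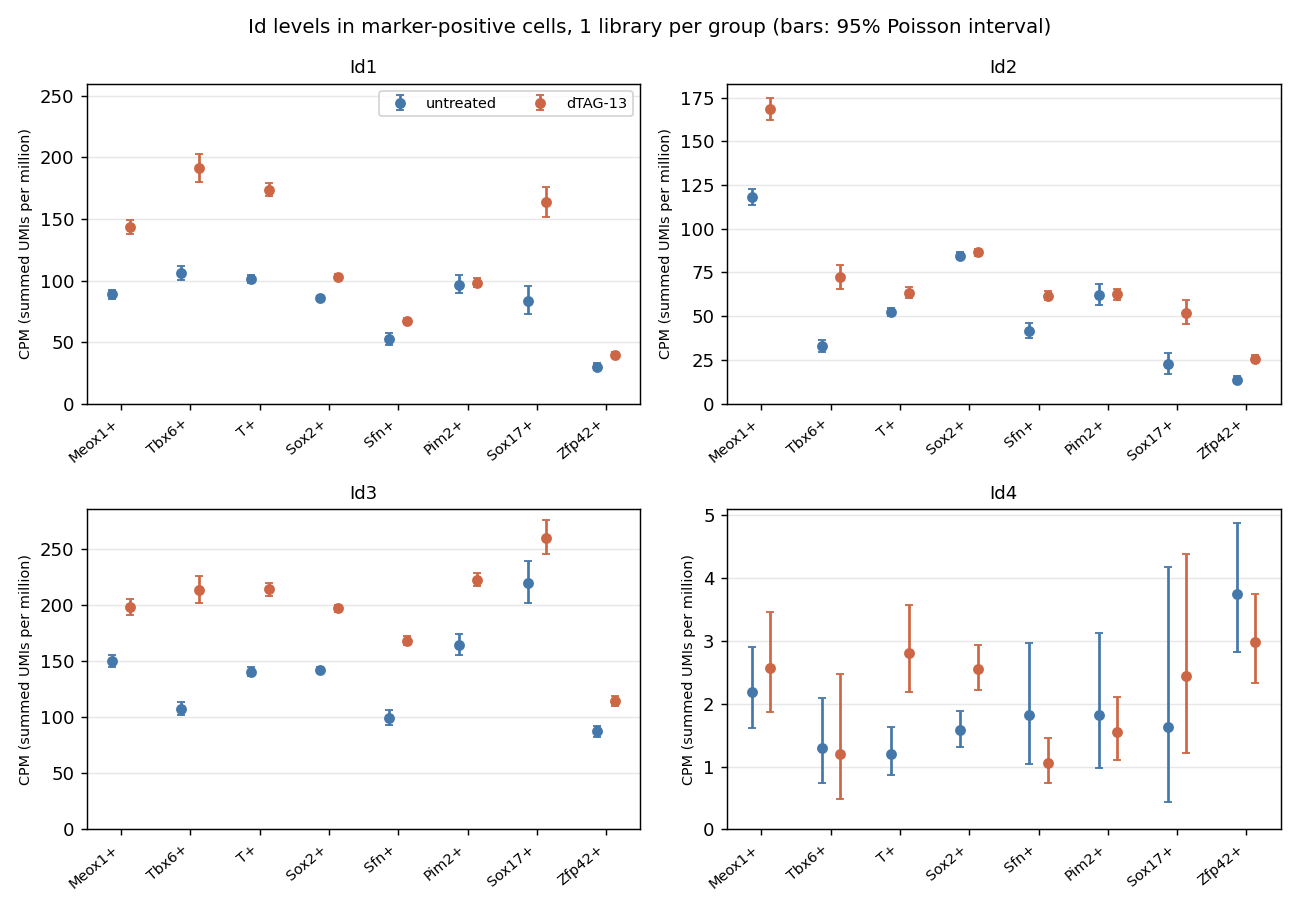
Level of each Id gene in 8 marker gates, in CPM (linear axis from 0, own scale per panel), for the untreated library (blue) and the dTAG-13 library (orange). Points are 1 library each and bars are 95% Poisson intervals. In the Tbx6-positive gate Id1 was at 106 and 191 CPM, and Id4 stayed between 1.06 and 3.75 CPM in all 8 gates.

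In the untreated library each member had its own order over the gates. Id1 was lowest in Zfp42-positive cells, marked by a gene of naive pluripotency, at 29.8 CPM, and highest in Tbx6-positive presomitic-type cells at 106 CPM, a 3.57-fold range. Its levels in Sox17-, Sox2-, Meox1-, Pim2-, T- and Tbx6-positive cells formed a chain whose neighbours had overlapping intervals. Id2 had the widest range, 8.55-fold from 13.8 CPM in Zfp42-positive to 118 CPM in Meox1-positive somite-type cells, and no neighbours in its order overlapped. For Id3 the range was 2.51-fold, from 87.4 CPM in Zfp42-positive to 219 CPM in Sox17-positive endoderm-type cells. The Tbx6-positive gate, at the top of the Id1 order, was the third lowest for both Id2 (32.8 CPM) and Id3 (107.5 CPM), although its Id3 interval overlapped that of Sfn-positive cells. All neighbours in the untreated Id4 order overlapped, with the highest level, 3.75 CPM (2.82 to 4.88), in Zfp42-positive cells. With dTAG-13 the Zfp42-positive gate was still lowest for Id1, Id2 and Id3, while Meox1-positive cells remained highest for Id2 and Sox17-positive cells for Id3. Pim2-positive cells, marked by a gene of the epiblast, moved in the Id1 order from the third highest to the third lowest gate.

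Id1, a direct SMAD target, was at least 1.5-fold higher with dTAG-13 in 4 of the 8 gates and in no gate lower. These were the Meox1-, Tbx6-, T- and Sox17-positive gates, where 0.703%, 1.86%, 2.72% and 1.35% of all tested genes were higher by that much and 0.464%, 1.02%, 0.748% and 1.71% lower. In the Sox2-, Sfn-, Pim2- and Zfp42-positive gates, 2.01%, 1.44%, 0.888% and 0.585% of genes were higher and 0.973%, 2.05%, 1.06% and 0.199% lower. In Meox1-positive cells Id1 was at 88.7 CPM untreated and 143.5 CPM with dTAG-13, a log2 ratio of 0.69 (0.61 to 0.78) that ranked 37 of 7544 genes. Tbx6-positive cells had 106 and 191 CPM, a ratio of 0.84 (0.73 to 0.97). T-positive cells, the posterior progenitor-type gate, had 101 and 174 CPM, a ratio of 0.78 (0.72 to 0.85). Sox17-positive cells had 83.6 and 163.6 CPM, a ratio of 0.96 (0.74 to 1.20) that ranked 18 of 7789 genes. Smaller ratios were found in Sox2-positive cells (85.7 and 103.2 CPM, 0.27), Sfn-positive cells (52.3 and 67.2 CPM, 0.35) and Zfp42-positive cells (29.8 and 39.6 CPM, 0.40). Over the alternative settings these ranged from 0.17 to 0.61, from 0.05 to 0.43 and from -0.46 to 0.66. In Sfn-positive cells the interval was 0.21 to 0.51, but the ratio was 0.05 with each cell thinned to 5000 UMIs. The Pim2-positive gate was the one gate whose interval held 0, with 96.7 and 98.4 CPM and a ratio of 0.02 (-0.10 to 0.15). For the 4 gates past 1.5-fold, the ratio stayed past it under every alternative setting tried, with the lowest value, 0.62, in Meox1-positive cells.

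Id2 passed 1.5-fold in 3 gates, all higher with dTAG-13: Tbx6-, Sox17- and Zfp42-positive cells, the last of these against 0.585% of all tested genes. In Tbx6-positive cells Id2 was at 32.8 CPM untreated and 72.2 CPM with dTAG-13, a log2 ratio of 1.11 (0.94 to 1.34). Sox17-positive cells had 22.4 and 51.9 CPM, a ratio of 1.18 (0.78 to 1.66) from 55 and 233 UMIs, and 1 dTAG-13 cell held 12.0% of those 233 UMIs. This ratio ranked 11 of 7789 genes. Id2 in Sox17-positive cells stood at 29.4% and 59.6% of its library level. Of genes measured beside it there, the somite genes Pax3 and Meox1 stood at 61.0% and 69.9%, and at 38.1% and 27.6%. The naive pluripotency genes Esrrb (0% and 4.81%) and Dppa3 (1.89% and 11.7%) stood lower. The part of free RNA in the Sox17-positive Id2 level was not tested. Zfp42-positive cells had 13.8 and 25.6 CPM, a ratio of 0.84 (0.66 to 1.12), but with each cell thinned to 5000 UMIs it was 0.16 and with each cell weighted alike 0.47, both short of a call. Id2 in these cells stood at 18.1% and 29.3% of its library level. Of 3 somite genes measured beside it, Meox1 stood at 12.4% and 19.8%, Pax3 at 17.5% and 13.3%, and Meox2 at 21.7% and 4.27%. The part of free RNA in the Id2 level was not tested. Meox1-positive cells, the highest Id2 gate, had 118 and 168.5 CPM, a ratio of 0.51 (0.44 to 0.59). In Sox2-positive cells, at 84.7 and 86.6 CPM, the ratio was 0.03 (-0.02 to 0.08), and in Pim2-positive cells, at 62.2 and 62.6 CPM, it was 0.01 (-0.14 to 0.16). Ranks of these ratios were 3217 of 7709 and 3797 of 7656 genes. T-positive cells had 52.5 and 63.5 CPM (0.27) and Sfn-positive cells 41.8 and 61.6 CPM (0.55).

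Id3, another direct SMAD target, was higher with dTAG-13 in all 8 gates with an interval above 0, and at least 1.5-fold higher in Tbx6-, T- and Sfn-positive cells. In the Sfn-positive gate, 1.44% of all tested genes were higher by that much. Tbx6-positive cells had 107.5 CPM untreated and 213 CPM with dTAG-13, a log2 ratio of 0.98 (0.88 to 1.10). In T-positive cells the levels were 140 and 214 CPM, a ratio of 0.60 (0.55 to 0.66), but the call was lost under several alternatives, with 0.55 under TMM scaling and 0.47 in cells positive for T alone. In Sfn-positive cells, marked by a gene of non-neural ectoderm, they were 99.3 and 168 CPM, a ratio of 0.75 (0.66 to 0.86), and 0.51, short of a call, where the gate was set after thinning. Pim2-positive cells had 164 and 222 CPM, a ratio of 0.43 (0.35 to 0.53), where the intervals of Id1 and Id2 held 0. The smallest ratio was in Sox17-positive cells, where Id3 was highest to begin with: 219 and 260 CPM, 0.24 (0.10 to 0.39). Its rank there was 1057 of 7789 genes. Meox1-, Sox2- and Zfp42-positive cells had ratios of 0.40, 0.47 and 0.38.

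Id4 was below 10 CPM in every gate, so it could make no call. Its interval lay above 0 in T-positive cells, with 41 and 67 UMIs (1.20 and 2.82 CPM), and in Sox2-positive cells, with 121 and 202 UMIs (1.58 and 2.55 CPM). In the other 6 gates the interval held 0, and no direction could be read at this depth.

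Markers of other lineages and handling-induced genes also differed between the libraries within the gates. Summed non-neural ectoderm markers (6 listed) were at 42.1 and 124 CPM in Meox1-positive, 66.6 and 203 CPM in Tbx6-positive, 180 and 515 CPM in T-positive and 115 and 380 CPM in Sox2-positive cells. They were also higher with dTAG-13 in Sfn-positive (494 and 769.5 CPM), Pim2-positive (80.1 and 216 CPM) and Zfp42-positive cells (72.4 and 160.5 CPM). Sox17-positive cells had 1151 and 1147 CPM of them, with Dlx5, Dlx3 and Tfap2a at 0 in the untreated cells. Endothelium markers in the Sox17-positive gate were at 67.3 and 22.5 CPM and endoderm markers at 4044 and 3012 CPM, none of either list at 0. Of 13 dissociation genes, immediate early and stress genes induced by cell handling, 4 or 5 were over 10 CPM in each gate. In Tbx6-positive cells 2 of 4 were called higher, Jun (0.77) and Jund (0.60), and 1 lower, Btg2 (-0.86), against 1.86% of all tested genes higher and 1.02% lower. In T-positive cells 2 of 4 were called higher, against 2.72%, and in Sox2-positive cells 1 of 4, Jun (0.63), against 2.01%. In Sfn-positive cells 1 of 5 was called lower, Dusp1 (-0.85), against 2.05%, and in Zfp42-positive cells 1 of 5, Egr1 (-0.87), against 0.199%. None was called in Meox1-, Pim2- and Sox17-positive cells. The part of these differences in the Id ratios was not tested.

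**Figure D2:**
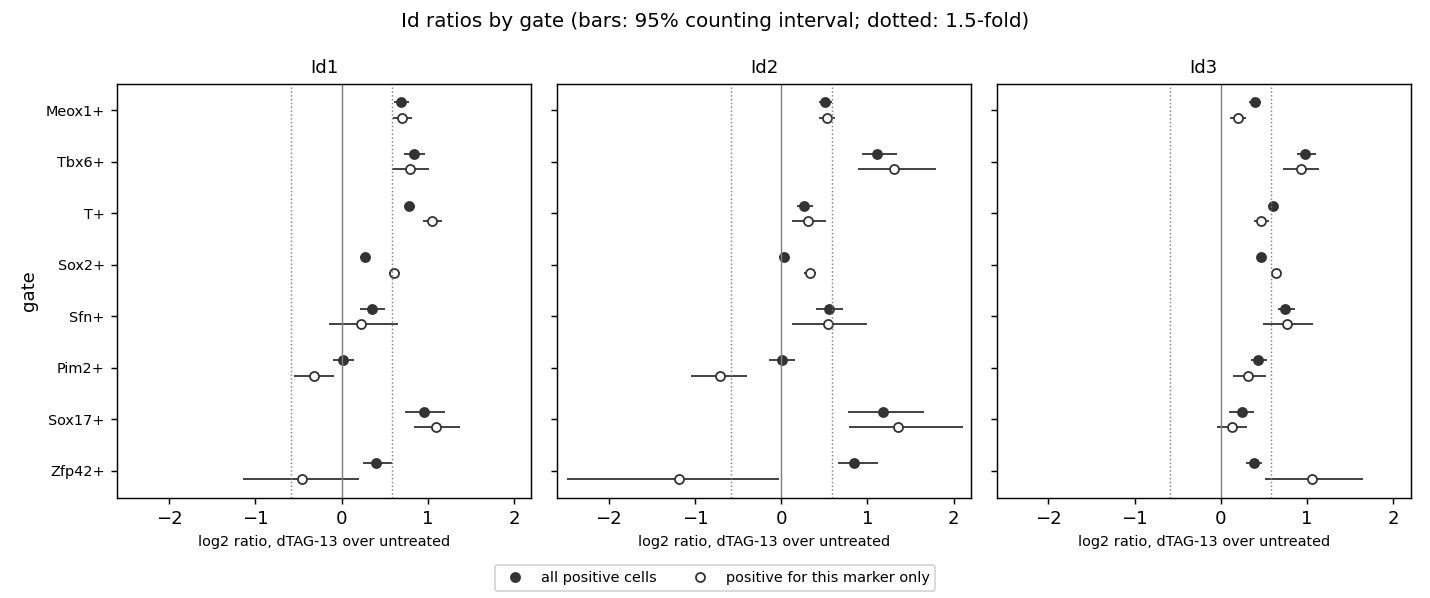
Log2 ratio of dTAG-13 over untreated CPM (x axis, prior of 1 CPM) for Id1, Id2 and Id3 in each gate, for all cells positive for the marker (filled) and for cells positive for that marker and none of the other 7 (open). Bars are 95% counting intervals and dotted lines mark 1.5-fold. Open points for Pim2 lie below 0 for Id1 (-0.32) and Id2 (-0.71) and above 0 for Id3 (0.32).

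Differences between members are described for Sox17-, Pim2- and T-positive cells, chosen after their values were seen. Cells positive for Sox17 and for none of the other 7 markers numbered 90 and 132. In them Id1 was at 79.2 and 171 CPM (1.10, 0.84 to 1.38) and Id2 at 13.7 and 36.7 CPM (1.36, 0.79 to 2.11). The Id2 ratio rests on 25 and 117 UMIs, and 1 dTAG-13 cell held 19.7% of those 117 UMIs. The top untreated cell held a slightly larger share of the 25 UMIs. Id3 was at 241 and 264 CPM (0.13, -0.04 to 0.30), so that its interval held 0 where those of Id1 and Id2 lay above it. In the same cells endothelium markers summed to 35.5 and 27.6 CPM and endoderm markers to 4568 and 3552 CPM. All 13 dissociation genes summed to 308 and 231 CPM in the Sox17-positive gate.

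In the Pim2-positive gate as a whole the Id1 and Id2 ratios were near 0, and over the alternatives tried Id1 ranged from -0.32 to 0.30 and Id2 from -0.71 to 0.14. With a gate of at least 1 UMI Id1 was at 0.30 and Id2 at 0.05, and with no doublet removal they were at 0.19 and 0.14. Lower values were found in subsets of the gate. In cells positive for Pim2 alone, 70 and 289 in number, Id1 was at 137 and 110 CPM, a ratio of -0.32 (-0.55 to -0.09), and Id2 at 75.6 and 45.7 CPM, a ratio of -0.71 (-1.05 to -0.40). Id3 in the same cells was at 183 and 229.5 CPM, a ratio of 0.32 (0.14 to 0.52). Zfp42-positive cells made up 29.5% of the untreated and 17.4% of the dTAG-13 Pim2 gate. Without them Id1 was at 131 and 114 CPM (-0.20, -0.33 to -0.07), Id2 at 89.4 and 72.0 CPM (-0.31, -0.47 to -0.15) and Id3 at 197 and 243 CPM (0.30, 0.20 to 0.41). Within the Zfp42-positive cells of that gate, 76 and 156 in number, all 3 were higher with dTAG-13, Id1 at 27.7 and 53.7 CPM, Id2 at 7.24 and 35.5 CPM and Id3 at 97.2 and 161 CPM. In Sfn-positive cells the same exclusion, which removed 35.1% and 16.7% of the gate, left Id1 at 70.8 and 73.2 CPM (0.05, -0.11 to 0.21) and Id2 at 62.1 and 68.6 CPM (0.14, -0.03 to 0.32). Id3 there was at 110.4 and 175 CPM (0.66, 0.54 to 0.79). Id3 was thus the one member with an interval above 0 in both gates once Zfp42-positive cells were left out.

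In T-positive cells Id1 and Id3 were past 1.5-fold and Id2 was not. In cells positive for T alone, 590 and 443, Id1 was at 111 and 230 CPM (1.05, 0.95 to 1.16), Id3 at 164 and 227 CPM (0.47, 0.38 to 0.56) and Id2 at 40.0 and 49.99 CPM (0.31, 0.13 to 0.52). In the T-positive gate the dissociation genes called higher were Jun, at 12.5 and 31.8 CPM, and Jund, at 30.3 and 58.3 CPM, and all 13 summed to 179 and 256 CPM. Summed notochord and node markers (6 listed, none at 0) were at 32.0 and 68.4 CPM and naive pluripotency markers at 13.5 and 33.6 CPM in the T-positive gate. The part of either in the Id ratios was not tested. Cells positive for Sox2 alone, 1708 and 1197, had higher ratios than the mixed Sox2 gate, with Id1 at 102 and 156 CPM (0.61), Id2 at 110.4 and 139 CPM (0.33) and Id3 at 159 and 248 CPM (0.64). Of 7659 genes tested in these cells, 1.8% were at least 1.5-fold higher, among them 1 of 4 dissociation genes over 10 CPM, Jun (0.59).

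**Figure D3:**
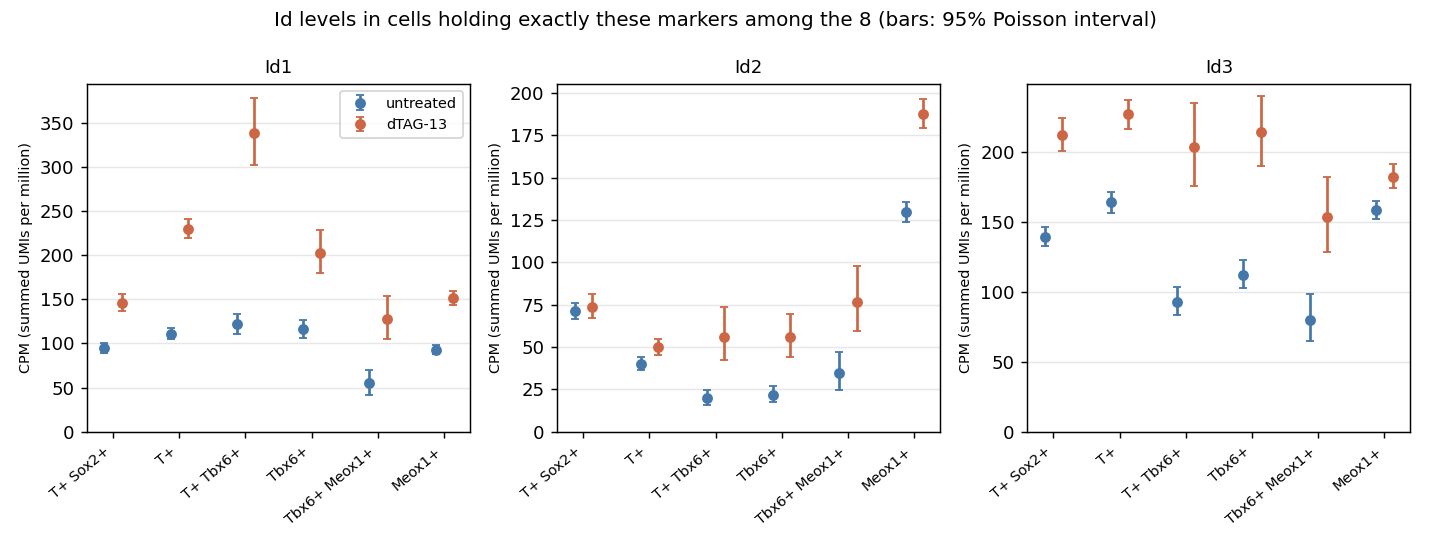
Level in CPM (y axis, linear from 0) of Id1, Id2 and Id3 in cells holding exactly the markers named on the x axis among the 8, ordered from posterior progenitor-type to somite-type marker combinations, in untreated (blue) and dTAG-13 (orange) libraries. Bars are 95% Poisson intervals. Id1 with dTAG-13 reached 338 CPM in T- and Tbx6-positive cells, and Id2 was highest in Meox1-positive cells in both libraries.

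Exact marker combinations place the differences along the series from posterior progenitor to somite. In cells positive for T and Sox2, the combination of neuromesodermal progenitors, 437 and 248 cells, Id1 was at 95.1 and 146 CPM (0.62) and Id3 at 139 and 212 CPM (0.60), against 3.52% of 7706 genes higher by at least 1.5-fold. Id2 in these cells was at 71.1 and 73.8 CPM (0.05, -0.12 to 0.22). Of 4 dissociation genes over 10 CPM there, 1 was called higher, Jun (1.25). In cells positive for T and Tbx6, the onset of presomitic identity, Id1 was at 122 and 338 CPM, a ratio of 1.47 (1.26 to 1.68). Id2 was at 19.8 and 56.2 CPM (1.46, 0.97 to 2.03) and Id3 at 92.9 and 204 CPM (1.12, 0.87 to 1.39). These values rest on 163 untreated and 38 dTAG-13 cells, of which 1 dTAG-13 cell held 16.6% of the Id1 UMIs and 20.8% of the Id2 UMIs. Cells positive for Tbx6 and Meox1, 53 and 34, had Id1 at 54.8 and 128 CPM (1.21), Id2 at 34.8 and 76.7 CPM (1.12) and Id3 at 80.01 and 153.5 CPM (0.93). The top cell for each gene held 20.6%, 22.5% and 15.2% of these UMIs untreated, and 17.3%, 16.7% and 18.9% with dTAG-13. Cells positive for Meox1 alone, 691 and 439, had Id1 at 92.9 and 152 CPM (0.70), Id2 at 130 and 188 CPM (0.53) and Id3 at 158 and 182 CPM (0.20, 0.11 to 0.29). Along this series the Id3 ratio was thus largest in the Tbx6-positive combinations and smallest in the Meox1-positive cells, whereas the Id1 ratio in Meox1-positive cells was still past 1.5-fold. In Tbx6-positive cells summed naive pluripotency markers were at 6.54 and 24.3 CPM (Esrrb at 0 in the untreated cells) and presomitic markers at 1013 and 676 CPM. Summed somite markers there were at 229.5 and 345 CPM, and 14.6% and 30.7% of the cells were also Meox1-positive. The part of these differences in the Id ratios was not tested. Without Zfp42-positive cells, or in cells positive for Tbx6 alone, the Tbx6-positive ratios of Id1, Id2 and Id3 remained past 1.5-fold. Cells positive for Tbx6 alone numbered 207 and 59, and the top dTAG-13 cell held 17.7% of their Id1 UMIs. The share of all genes past 1.5-fold was computed for neither set. It was also not computed for cells with T and Tbx6, with Tbx6 and Meox1, or with Meox1 alone.

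**Figure D4:**
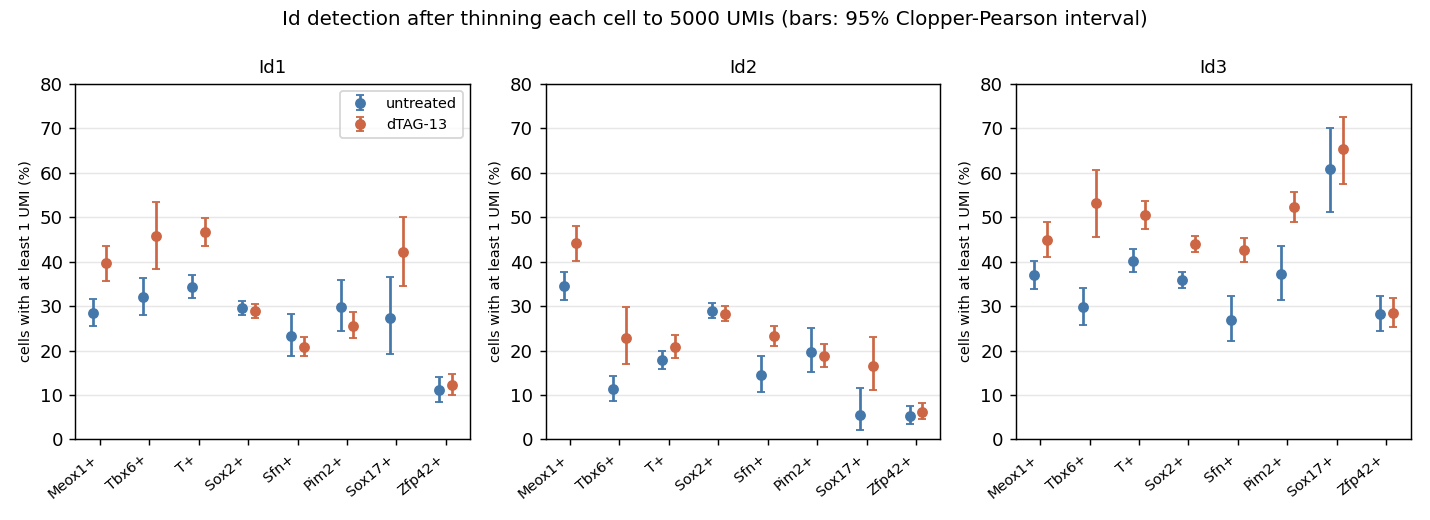
Share of cells with at least 1 UMI of Id1, Id2 or Id3 (y axis, percent) in each gate after every cell was thinned to 5000 UMIs, untreated (blue) and dTAG-13 (orange), with 95% Clopper-Pearson intervals. Tbx6-positive cells with Id3 went from 29.8% to 53.1%, and Zfp42-positive cells with Id1 were at 11.1% and 12.2%.

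Detection was compared after thinning each cell to 5000 UMIs, which left out 87 untreated and 81 dTAG-13 cells with fewer. In Tbx6-positive cells the share with Id1 was 32.0% (27.9 to 36.2) untreated and 45.8% (38.4 to 53.4) with dTAG-13. The share with Id2 was 11.2% and 22.9%, and with Id3 29.8% and 53.1%. Without thinning these shares were 69.6% and 77.7% for Id1, 34.5% and 57.5% for Id2, and 61.1% and 81.0% for Id3. All 3 members were found in the same thinned cell in 1.97% of untreated and 10.1% of dTAG-13 Tbx6-positive cells, and none of the 3 in 49.1% and 25.1%. In Sox17-positive cells the share with Id3 was 60.9% (51.1 to 70.1) and 65.2% (57.4 to 72.5), that with Id1 27.3% (19.2 to 36.6) and 42.1% (34.4 to 50.02), and that with Id2 5.45% (2.03 to 11.5) and 16.5% (11.1 to 23.0). The intervals of the untreated and dTAG-13 shares overlapped for all 3 members. Unthinned, these were 88.2% and 90.2% for Id3, 58.2% and 73.2% for Id1, and 21.8% and 36.6% for Id2. In Meox1-positive cells the thinned share was 28.5% and 39.6% for Id1, with 60.4% and 70.8% unthinned, so that its intervals (25.6 to 31.5 and 35.7 to 43.5) did not overlap. In T-positive cells Id1 was found in 34.4% and 46.6% of thinned and 72.8% and 73.6% of unthinned cells, a difference that shows mainly after thinning. Pim2-positive cells had Id3 in 37.2% and 52.2% and Id1 in 29.8% and 25.6% of thinned cells, with 72.9% and 82.7% and 56.6% and 56.7% unthinned. For Sox2-positive cells the Id1 share was 29.5% and 28.9%, although the level was higher with dTAG-13, and the share with 3 or more Id1 UMIs was 3.18% and 5.36%. Sox2-positive cells without thinning had Id1 in 65.5% and 56.1%. Id4 was found in between 0 and 2.49% of thinned cells in any gate. After thinning 0 of 110 untreated Sox17-positive cells held an Id4 UMI, which allows a share of cells with a UMI at that depth of up to 2.73%, and unthinned 3.64% of them held one. Before thinning, Zfp42-positive cells had a median of 26201.5 and 27324 UMIs. Their Id2 share after thinning, 5.16% and 6.16%, is set beside the thinned shares of 3 somite genes not expected there. These were Meox1 at 2.10% and 1.57%, Pax3 at 0.956% and 1.05%, and Meox2 at 0.382% and 0.131%. The thinned Id2 share was above all 3, and so was its library level, 76.2 and 87.1 CPM. Library levels were 54.6 and 33.1 CPM for Meox1, 26.05 and 15.3 CPM for Pax3, and 2.83 and 0.970 CPM for Meox2. Because these levels differ, the shares cannot be compared directly, and the part of free RNA in the Id2 share was not tested. No cell type known to lack Id1 or Id3 was at hand in these cultures.

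Detection of 1 member was also set against that of another in the same thinned cells. In Meox1-positive untreated cells, Id3 was detected in 56.6% of the 258 cells with Id1 and in 29.0% of those without, and in dTAG-13 cells in 58.3% and 36.1%. In T-positive cells Id2 was found in 16.8% of untreated cells with Id1 and in 18.4% of those without, and in dTAG-13 cells in 22.4% and 19.3%. In Sox2-positive cells the Id2 share was 33.5% and 27.0% in untreated cells with and without Id1, and 43.2% and 22.2% in dTAG-13 cells. In cells positive for Sox2 alone it was 36.9% and 36.3% untreated, and 51.1% and 34.0% with dTAG-13. These shares come from the thinned cells, so they share 1 depth, and each library is a single sample. Splitting the same thinned cells by Zeb2 detection, Sox2-positive cells with a Zeb2 UMI had Id1 at 95.8 CPM and those without at 82.9 CPM in the untreated library, a log2 ratio of 0.21 (0.03 to 0.38). With dTAG-13 the values were 148 and 85.8 CPM, a ratio of 0.78 (0.65 to 0.93). This gate is mixed: its Zfp42-positive cells had Zeb2 at 9.79 and 23.1 CPM and Id1 at 19.7 and 34.0 CPM, untreated and dTAG-13. Its cells without Zfp42 had Zeb2 at 83.0 and 122 CPM and Id1 at 99.1 and 129 CPM. The part of this mixture in the split by Zeb2 was not tested. In Tbx6-positive cells with and without Zeb2, Id1 was at 106 and 97.4 CPM untreated (0.12, -0.27 to 0.51) and at 209 and 216 CPM with dTAG-13 (-0.05, -0.47 to 0.38). In Zfp42-positive cells Id1 was at 103 and 26.3 CPM with and without Zeb2 in the untreated library, from 29 and 494 cells, and at 121 and 29.8 CPM with dTAG-13, from 58 and 705 cells.

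**Figure D5:**
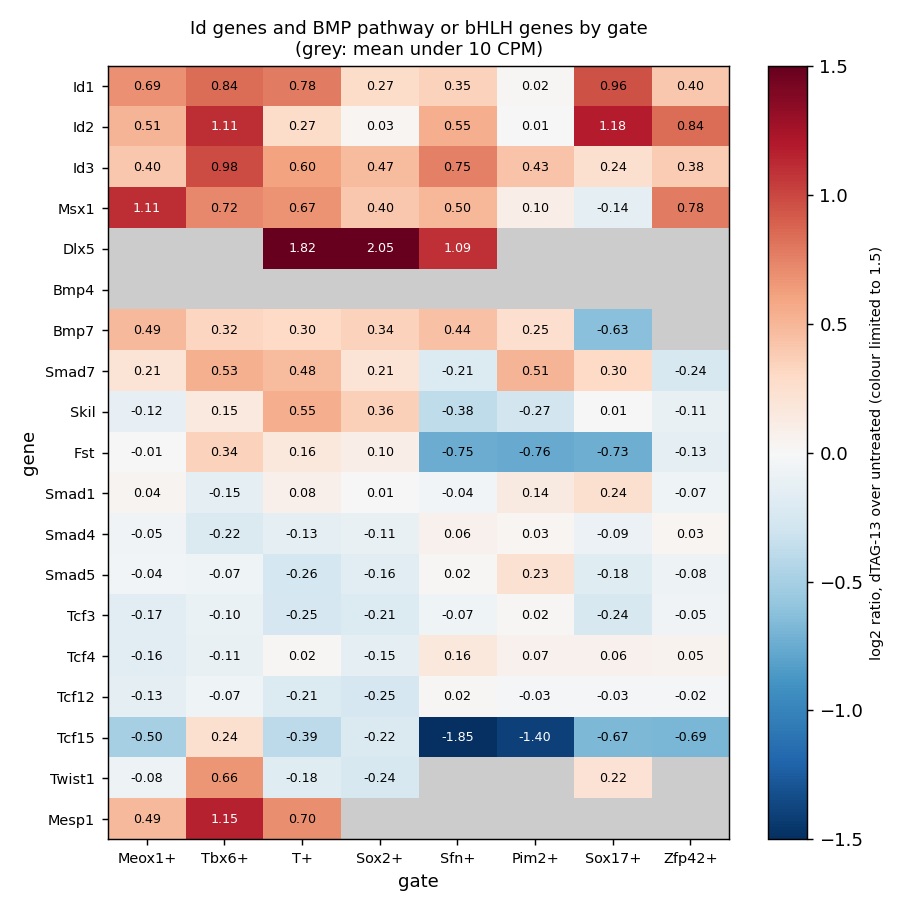
Log2 ratio of dTAG-13 over untreated CPM for Id1, Id2, Id3 and listed BMP pathway and bHLH genes (rows) in each gate (columns). Red is higher and blue lower with dTAG-13, colours stop at 1.5, and grey marks a mean under 10 CPM. Msx1 ranged from -0.14 in Sox17-positive to 1.11 in Meox1-positive cells, and the Smad1, Smad4, Smad5 and E-protein rows stayed between -0.26 and 0.24.

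The other genes of the pathway were counted in lists chosen by function. Of the 6 BMP ligands, 1 was over 10 CPM in the whole libraries: Bmp7, at 14.1 and 18.3 CPM (0.35), was not called. Under the minimum, Bmp2 was at 3.82 and 5.92 CPM (0.52, 0.48 to 0.79 without the prior) and Bmp4 at 3.00 and 3.49 CPM (0.17). In Sox2-positive cells Bmp2 was at 1.38 and 4.11 CPM, and in Sox17-positive cells, the gate where it was over the minimum, at 34.7 and 31.9 CPM. Bmp7 was called lower in Sox17-positive cells, at 27.7 and 17.6 CPM (-0.63, -1.14 to -0.17), against 1.71% of all tested genes. No ligand was called in any other gate. Of the 6 receptors 4 were over the minimum and of the 4 SMAD transducers 3, with none called in either direction and median log2 ratios of -0.06 and -0.07. Among the receptors Acvr2a, a type II receptor of activins and BMPs, was at 14.8 and 13.2 CPM (-0.15, -0.25 to -0.07), Bmpr1a, a type I BMP receptor, at 34.2 and 32.7 CPM (-0.06) and Bmpr2, a type II BMP receptor, at 18.6 and 18.0 CPM (-0.05). Of the transducers Smad5, which carries the BMP signal, was at 19.4 and 17.8 CPM (-0.12, -0.20 to -0.05), Smad4, the shared partner SMAD, at 125 and 119 CPM (-0.07) and Smad1, which also carries the BMP signal, at 34.8 and 35.1 CPM (0.01). Of the 15 inhibitors 7 were over the minimum, none was called, and the median was 0.04. Among them Skil, a repressor of SMAD activity, was at 22.7 and 28.4 CPM (0.31), Smad7, an inhibitory SMAD and feedback target, at 17.0 and 20.1 CPM (0.23), and Fst, which encodes follistatin, a secreted binder of activins and some BMPs, at 59.3 and 48.5 CPM (-0.28). Of the 9 other BMP targets 2 were over the minimum and 1 was called higher, against 2.03% of all tested genes. The called gene, Dlx5, a homeobox gene of non-neural ectoderm, was at 6.61 and 32.1 CPM (2.12). Msx1, a homeobox target of BMP signalling, was at 49.8 and 71.5 CPM (0.51).

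By gate, Msx1 was called higher in Meox1-, Tbx6-, T- and Zfp42-positive cells, where 0.703%, 1.86%, 2.72% and 0.585% of all tested genes were. In Meox1-positive cells it was at 14.4 and 32.4 CPM (1.11, 0.97 to 1.37), in Tbx6-positive cells at 46.1 and 76.7 CPM (0.72) and in T-positive cells at 84.2 and 134 CPM (0.67). In Zfp42-positive cells, where it was the one listed target over the minimum, Msx1 was at 13.5 and 23.9 CPM (0.78, 0.59 to 1.07). Sox2-positive cells had 58.4 and 77.5 CPM (0.40) and Sfn-positive cells 79.65 and 113 CPM (0.50), both under 1.5-fold. In Pim2-positive cells it was at 27.7 and 29.8 CPM, with an interval of -0.12 to 0.34, and in Sox17-positive cells, where Id1 and Id2 were called higher, at 22.4 and 20.3 CPM (-0.14, -0.64 to 0.37). Hey1, the other listed target over the minimum in Sox17-positive cells, was called lower there, at 21.6 and 12.3 CPM (-0.77, -1.39 to -0.25). Dlx5 was called higher in the gates where it was over the minimum, T-positive (1.82), Sox2-positive (2.05) and Sfn-positive cells (1.09), against 2.72%, 2.01% and 1.44% of all tested genes. Smad7 had ratios of 0.53 in Tbx6-positive, 0.48 in T-positive and 0.51 in Pim2-positive cells, each under 1.5-fold. Fst was called lower in Pim2-positive cells, at 91.2 and 53.4 CPM (-0.76, -0.91 to -0.64), against 1.06% of all tested genes. It was also called lower in Sfn-positive (23.9 and 13.8 CPM, -0.75) and Sox17-positive cells (19.2 and 11.1 CPM, -0.73), against 2.05% and 1.71%. Id2 ratios in the Pim2-, Sfn- and Sox17-positive gates were 0.01, 0.55 and 1.18.

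The E proteins, the partners of Id proteins, were lower with dTAG-13 in the whole libraries by amounts close to that by which Id2 was higher. All 3 were over the minimum and none was called: Tcf3 was at 69.8 and 59.9 CPM (-0.22), Tcf12 at 97.4 and 85.3 CPM (-0.19) and Tcf4 at 104 and 95.3 CPM (-0.12). Of the 14 tissue bHLH factors 3 were over the minimum in the whole libraries, and 1 was called lower, against 0.983% of all tested genes. That gene, Tcf15, a factor of the epithelial somite, was at 66.1 and 39.7 CPM (-0.72), a larger ratio than that of any Id member in either direction. Twist1, a bHLH factor of mesoderm, was at 28.2 and 20.9 CPM (-0.42). By gate, Tcf15 was called lower in Sfn- (-1.85), Pim2- (-1.40), Sox17- (-0.67) and Zfp42-positive cells (-0.69). Of all tested genes, 2.05%, 1.06%, 1.71% and 0.199% were lower by that much there, and Id1 had ratios of 0.35, 0.02, 0.96 and 0.40. In Meox1-positive cells Tcf15 was at 300.2 and 211.5 CPM (-0.50), short of a call, with Id1 at 0.69. In Tbx6-positive cells Tcf15 was higher (0.24), with Id1 at 0.84. Mesp1, a bHLH factor of early mesoderm, was at 47.2 and 106 CPM in Tbx6-positive cells (1.15, 1.00 to 1.33), the gate with the highest Id3 ratio. In that gate 2 of the 4 bHLH factors over the minimum were called higher, against 1.86% of all tested genes.

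The likeness of other genes to each member was measured by Pearson's r of log2(CPM + 1) over 16 points, the 8 gates in each of 2 libraries, among 6940 genes. These points overlap in cells and share 2 libraries, so r is a description only. Between members r was 0.78 for Id1 and Id3, 0.63 for Id1 and Id2, and 0.49 for Id2 and Id3. The closest genes were March6, Arid4b and Rala for Id1 (0.92 each), Metrn (0.96), Mrps23 (0.91) and Med8 (0.90) for Id2, and Copz1 (0.94), Bex3 (0.93) and Dpm3 (0.93) for Id3. Id4 had lower values, 0.82 for Fam160b1, 0.81 for Kmt2c and 0.74 for Grb2.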

How the data were processed

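The authors deposited UMI counts for each gene in each cell barcode, unnormalized whole numbers. They were made with Cell Ranger 6.1.2 on mm10, per the submitters' processing notes. The tables held 7276 untreated barcodes with 158002807 UMIs and 7873 dTAG-13 barcodes with 176677276 UMIs. Barcodes with under 1000 genes or over 10% mitochondrial UMIs were removed (630 and 693). Scrublet in scanpy 1.11.5 marked 1 and 0 doublets automatically, too few to be credible, so the top scores, 0.8% per 1000 barcodes, were removed (424 and 496). UMIs of the kept cells were summed per gate and divided by the gate's total. A ratio is the log2 quotient of both CPM values (dTAG-13 divided by untreated) after adding 1 CPM to each. Ratio intervals are exact conditional intervals of the counts without the prior, levels have exact Poisson intervals and shares exact Clopper-Pearson intervals, all at 95%. The limit given for a count of 0 is 3 counts. The PCR-amplified UMIs of 1 pool are not independent cultures. The calculation was tested on simulated counts. Of the gene identifiers, 32158 of 32285 matched the GRCm38 annotation.

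The members, the lists and the gates were chosen with earlier results of these data known. Exact marker combinations beyond single markers, gates without Zfp42-positive cells and the weighting of marker patterns were added after values had been seen. All 4 members are named in every gate. From each gene list, the members named are up to 3 with the largest whole-library ratio at a mean of at least 10 CPM. Bmp2, Bmp4, Hey1 and values of list genes within gates were chosen after their values were seen. Alternatives covered doublet removal, a higher minimum of genes, edgeR 4.0.16 TMM and DESeq2 1.42.0 scaling, the prior, thinning, equal weight per cell and other gates.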

Additional observations from a re-analysis of the deposited data

Results flagged for a closer look

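Results in cells positive for a single gate marker went in opposite directions between gates. The Id1 log2 ratio was -0.32 in Pim2-positive and 1.10 in Sox17-positive cells. The Id2 log2 ratio was -0.71 in Pim2-positive, -1.18 in Zfp42-positive and 1.36 in Sox17-positive cells. With 1 library per group the difference between gates was not tested. The Zfp42-positive value (-2.48 to -0.03) rests on 16 and 11 Id2 UMIs in 21 and 29 cells. These cells are not Sox2-positive, whereas 86.6% and 86.1% of the whole Zfp42-positive gate are. Their naive pluripotency markers summed to 130 and 88.4 CPM, against 471 and 412 CPM in the whole gate. Posterior progenitor markers summed to 424 and 232.5 CPM, against 120 and 130 CPM, so the value does not stand for the naive lineage. The Sox17-positive Id2 value rests on 25 and 117 UMIs in 90 and 132 cells. Of those 117 UMIs, 1 dTAG-13 cell held 19.7%.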

How the results depend on the processing

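For Id1, Id2 and Id3 the 24 gate ratios were recomputed under the alternatives, which gave 285 values. Of these, 270 had the direction reported and 203 lay within the reported interval. The other 15 were Id1 and Id2 in Pim2- and Zfp42-positive cells and Id2 in Sox2-positive cells. In cells positive for exactly 1 marker Id2 was at least 1.5-fold lower in 2 gates instead of 0. The Id2 ratio in cells positive for Zfp42 alone was -1.18, reversed from the whole gate. Those 21 and 29 cells are not Sox2-positive, unlike 86.6% and 86.1% of the whole gate. The whole-library ratios of Id1, Id2, Id3 and Id4 were 0.39, 0.15, 0.42 and 0.43 with DESeq2 size factors and 0.40, 0.15, 0.43 and 0.44 with TMM scaling. Thinned to 5000 UMIs they were 0.50, 0.23, 0.44 and 0.30, and with marker patterns weighted as in the untreated library 0.70, 0.41, 0.53 and 0.59. Id2 was at 0.23 with each cell weighted alike, and Id4 at 0.20 with a prior of 5 CPM. The share of all genes at least 1.5-fold higher was 3.21% at a minimum of 1 CPM and 2.03% as reported. The cause of these shifts was not tested. No paired analysis was possible because there is 1 library per group. Depth limits Id4, the Sox17-positive gate and the Tbx6-positive dTAG-13 cells.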

Other observations

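Cells negative for all 8 markers, 1184 untreated and 1479 dTAG-13, also held Id transcripts. In them Id1 was at 97.7 and 162 CPM, a log2 ratio of 0.73 (0.65 to 0.81), Id2 at 63.8 and 97.6 CPM, 0.61 (0.52 to 0.71), and Id3 at 161 and 230 CPM, 0.51 (0.45 to 0.58). In cells positive for both Sox2 and Zfp42, Id1 was at 19.7 and 34.0 CPM (0.76, 0.58 to 1.00) and Id3 at 82.6 and 108 CPM (0.39, 0.29 to 0.50). Id2 there was at 9.71 and 25.4 CPM, and Meox1, a somite gene, at 3.39 and 4.28 CPM in the same cells.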
